A study of Peromyscus maniculatus with 16 samples.

Results

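The genes described here are the nuclear-encoded subunits of the mitochondrial respiratory chain and of ATP synthase. They are the genes whose symbols have these forms: Nduf followed by a, b, c, s or v and a digit for complex I (NADH dehydrogenase), the Sdh subunits of complex II (succinate dehydrogenase), the Uqcr subunits of complex III (the cytochrome bc1 complex), the Cox4 to Cox8 families of complex IV (cytochrome c oxidase) and the Atp5 subunits of complex V (ATP synthase). Ndufab1 does not have this form and is described with the cytochrome c and coenzyme Q genes. Of the 16910 genes in the table, 60 matched. Complex I accounts for 33 of them, complex II for 4, complex III for 5, complex IV for 12 and complex V for 6. The subunits encoded in mitochondrial DNA could not be described, since 0 of the 26 symbols searched for them are in the table.

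Read counts per gene were measured in the livers of 16 deer mice, Peromyscus maniculatus, an outbred rodent. A control group (C) of 6 males ate regular chow, and 10 animals ate a high-fat diet (HFD) with 58 kcal% fat for 28 weeks from an age of 3 to 4 months. The labels divide the HFD animals into 5 without steatosis (NS), all male, and 5 with steatosis (S), of which 2 are male and 3, animals 35955, 35982 and 35990, are female. Because every female is in S, sex and steatosis can be told apart only through the S males, 10880 and 36016. The animals were 10 months old at the end. Most belong to BW, a closed colony of P. maniculatus bairdii, and 1 animal in each group belongs to SM2, a colony of P. maniculatus sonoriensis: 10876 in C, 10865 in NS and 10880 in S. Values for single animals are listed in the order 10865, 35930, 35937, 35963 and 35987 for NS, and 10880, 35955, 35982, 35990 and 36016 for S.

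The respiratory chain takes electrons from NADH at complex I and from succinate at complex II, passes them through coenzyme Q, complex III and cytochrome c to oxygen at complex IV, and stores the energy as a proton gradient that ATP synthase uses to make ATP. In the liver this machinery oxidises the products of fatty acid breakdown and of the citric acid cycle and supplies ATP for glucose and urea synthesis. Several subunits of complex IV exist as paired isoforms, with a form found in most tissues, liver included, and another known from heart, skeletal muscle and brown fat. Cox7a1 and Cox8b belong to the muscle-type forms.

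Total counts ranged from 6374518 to 11349971 in C, from 7336900 to 9362184 in NS and from 4640733 to 10892425 in S. The smallest libraries were those of S animals 36016, with 4640733 counts, and 35982, with 4865756. Levels are given as read counts scaled to a common library size (CPM) after TMM scaling. They are not corrected for transcript length, so no level is compared between subunit genes. Where the main source of a marker sum is named, it is by CPM. A gene was tested where at least 1 animal had 0.5 CPM, which 12639 genes and 57 of the 60 subunit genes did. The other members are complex IV isoforms: Cox7b2 and Cox8c had 0 counts in every animal, and Cox6a2 had 1 count, in C animal 36001. A gene is called below at an adjusted p under 0.1 in edgeR's quasi-likelihood test over all genes tested, and fold changes are log2 values with their standard error.

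The comparison of S with C shows how chow-fed livers and livers with steatosis on HFD differ. Most subunit transcripts of complexes I, III, IV and V were lower in S, and in complex II 1 of 4 was called lower. Of the 57 genes tested, 47 fell and 1, Cox8b, rose, while 5.36% of all genes tested were called lower and 5.39% higher. The median log2 fold change of the subunit genes was -0.60, beside 0.10 for all genes, and 53 lay below 0. The exceptions were Cox8b and the sparsely counted Cox4i2, Cox6b2 and Ndufa4l2. Most of the differences were small, since with a fold change of at least 2 as a further condition 2 subunit genes were called lower, Cox7a1 and Ndufb9, beside 0.965% of all genes. In 23 of the 57 genes every S animal lay below every C animal, which held for 2.33% of all genes. In bulk liver, fewer cells of a type and less RNA per cell cannot be told apart.

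The summed CPM of all 60 genes ran from 18126 to 25666 in C, with a median of 23430.0. It was 16453, 25387, 17384, 21242 and 16892 in NS. In S it was 15108, 17532, 15108, 16757 and 11269. All S animals therefore lay below all C animals, with 36016 lowest, and the NS animals spread across both ranges, with 35930 among the highest and 10865, 35937 and 35987 among the S values. The plot of summed CPM by complex shows the same picture within complexes I to IV. Complex I held 6625 to 10109.5 CPM in C (median 8976) and 5585, 6213, 5239.9, 6053 and 4194 in S, a log2 ratio of group means of -0.67. For complex II the log2 ratio was -0.27, for complex III -0.50 and for complex IV -0.70, each again with every S animal below every C animal. The ratio of complex V was -0.54, and there C animal 35998, at 5160.2, and S animal 35955, at 5161.0, met. Under total-count scaling, chosen after seeing the data, the ratios of complexes I to V were -0.43, -0.04, -0.27, -0.46 and -0.30.

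**Figure D1:**
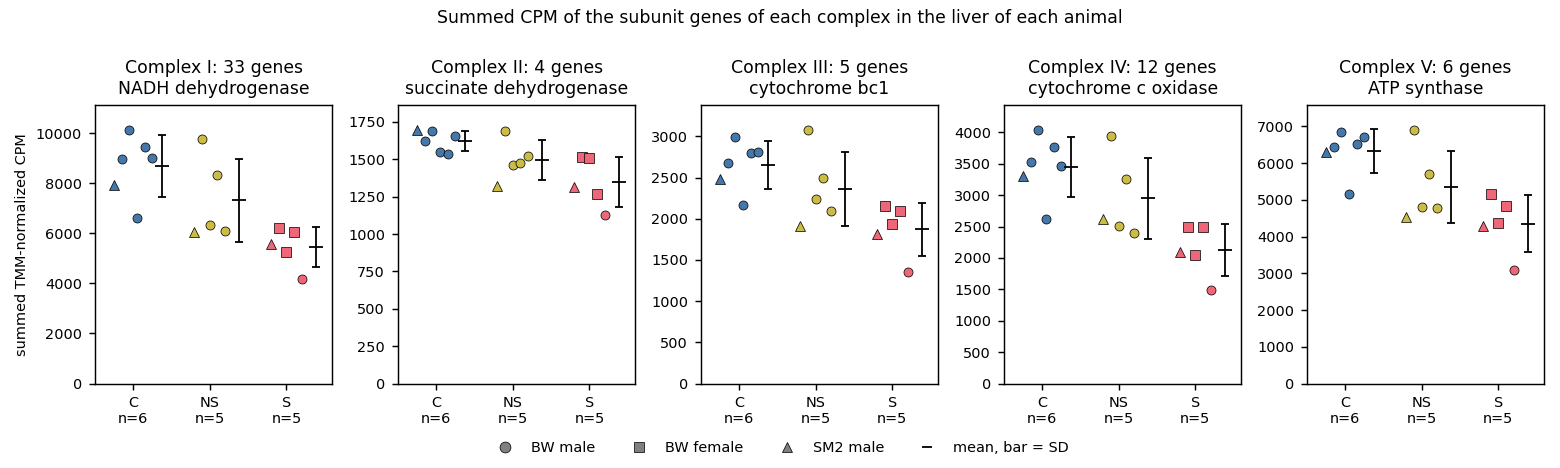
Summed TMM-scaled CPM of the subunit genes of each complex, with 1 point for each animal, by group (C, NS and S), and bars for the mean and SD. All S animals lie below all C animals in complexes I to IV, while NS animal 35930 lies near the top of each panel.

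The counts of calls depended on a few animals, and the direction did not. S animal 36016 had the lowest value of its group in 49 of 57 subunit genes, beside 24.8% of all genes. C animal 35998 was lowest among the controls in 43, beside 17% of all genes, and NS animal 35930 was highest in its group in 50, beside 21.1%. Without S animal 36016 the fit called 22 subunit genes in S vs C, without S animal 35982 it called 25, without C animal 35975 it called 21, and without C animal 36001 or 36007 it called 25. The calls over all genes also dropped in these fits, from 1359 to between 446 and 774. With both of the smallest libraries, 35982 and 36016, left out together, a setting chosen after seeing the data, 1 subunit gene was called (Ndufb3) and 173 genes in all, and the median of the subunit genes was -0.50 beside 0.05. With the log2 total count as a covariate, also chosen after seeing the data, 13 were called and the median was -0.48. In that fit 287 genes were called in all, and 1.18% of all genes tested were called lower. The part that library size plays in the result was not tested beyond these fits.

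Sex and scaling moved the number of calls as well. With sex as a covariate 29 subunit genes were called and the median was -0.75, and in the 13 males alone 22 were called with a median of -0.75, where S held 10880 and 36016 alone. All of these calls were lower in S. Over all genes, 3.42% were called lower with sex as a covariate and 2.59% in the males alone. For complexes I to V the genes called lower numbered 18, 1, 3, 5 and 2 with sex as a covariate, 12, 1, 2, 5 and 2 in the males alone, and 11, 0, 0, 2 and 0 with the log2 total count as a covariate. Scaling by total count in place of TMM, chosen after seeing the data, raised the median of all genes in S vs C to 0.33. It also turned the split of calls to 87.4% higher, from 50.1%. Under it 28 subunit genes were called, 27 of them lower, where 2.28% of all genes were called lower. The median of the subunit genes was -0.37. Relative to the median of all genes, that is -0.70, as under TMM. A change of scaling shifts all genes by nearly the same amount, so this difference could hardly move. Ndufs1 and Sdha moved above 0 under total-count scaling, at 0.10 and 0.08.

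**Figure D2:**
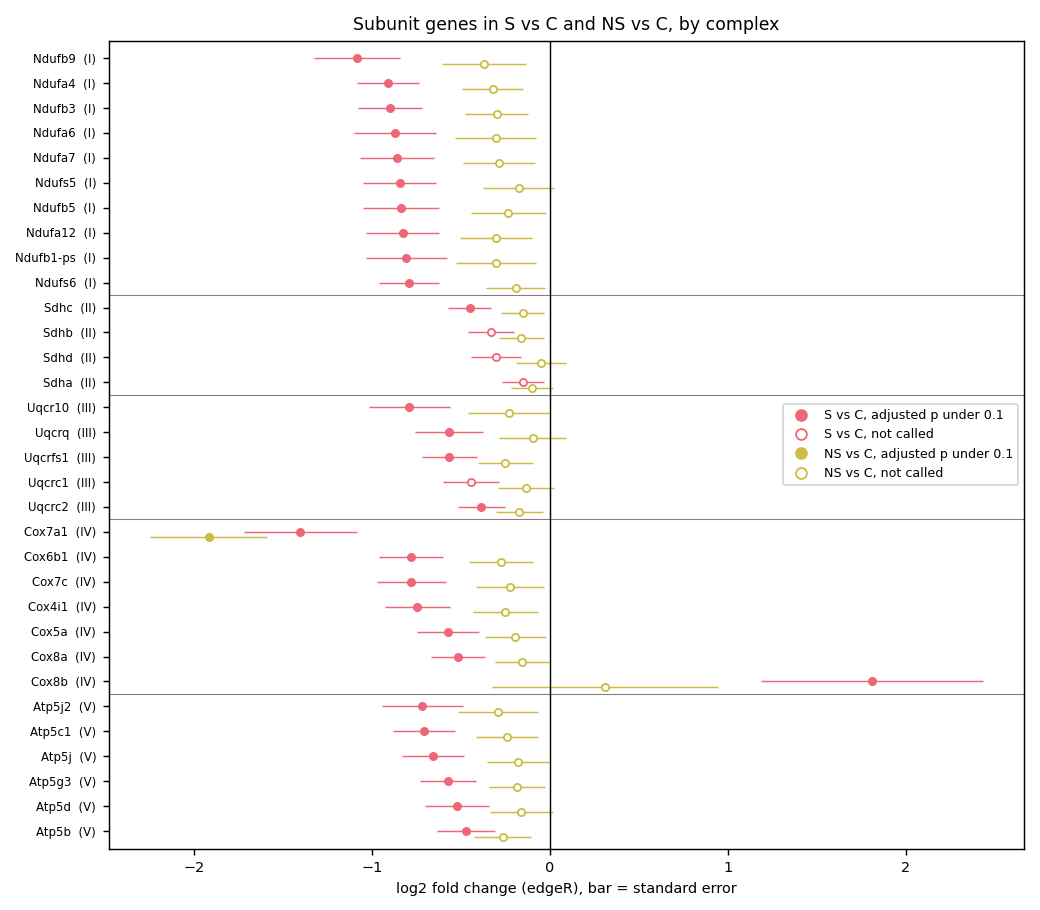
Log2 fold change of subunit genes against C, for S and for NS, with bars for the standard error, grouped by complex. At most 10 genes are shown per complex, those with the largest change in S vs C. Cox4i2 and Cox6b2 are left out for their low counts. Filled points passed an adjusted p under 0.1, and Cox7a1 is the gene filled in both comparisons. Both comparisons share the C animals.

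Complex I has a peripheral arm, where NADH is oxidised at a flavin and electrons pass iron-sulfur clusters, and a membrane arm that pumps protons. In S vs C, 30 of its 33 genes fell, with a median of -0.68, and none rose. The count was 15 without C animal 35975 or S animal 36016, and 17 without C animal 36001, C animal 36007 or S animal 35982. The genes not called were Ndufv2, Ndufs1 and Ndufa4l2. Complexes follow the gene symbols throughout, so Ndufa4 and Ndufa4l2 are counted in complex I and not in complex IV.

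Ndufa4, named after complex I and since assigned to complex IV, had 597 to 977 CPM in C with a median of 818. Its values were 599.6, 833, 522, 748 and 492 in NS, and 531, 452, 385, 441 and 319 in S. Every S animal lay below every C animal, and the NS animals covered both ranges. The log2 fold change in S vs C was -0.91 ± 0.18 (adjusted p = 0.0163), a 1.88-fold lower level. In NS vs C it was -0.32 ± 0.17 (adjusted p = 0.648).

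Ndufb9, an accessory subunit of the membrane arm, had 441 to 924 CPM in C with a median of 717. In NS it had 375, 819, 392, 673 and 454, and in S 281, 404, 317, 423 and 226. The S values again lay under all C values, while NS animals 10865 and 35937 lay within the S range. Its log2 fold change of -1.09 ± 0.24 in S vs C (adjusted p = 0.0281) was a 2.12-fold lower level.

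Ndufb3, also of the membrane arm, had 174 to 305 CPM in C, with a median of 238. The NS animals had 163, 273, 159, 253 and 150.3, and the S animals 124, 146, 133, 134 and 122. Here every S animal lay below every C and every NS animal. The log2 fold change was -0.90 ± 0.18 in S vs C (adjusted p = 0.0207) and -0.60 ± 0.19 in S vs NS, where the adjusted p was 0.307. Ndufs6, a zinc-binding subunit of the peripheral arm, showed the same separation, with S values of 122, 124, 118, 131 and 108 CPM against 139 to 246 in NS and 146 to 267 in C. Its log2 fold change in S vs C was -0.79 ± 0.17 (adjusted p = 0.0232). Among the other genes with a small adjusted p, Ndufa7 fell by 0.86 on the log2 scale, Ndufc2 by 0.68, Ndufs4 by 0.67 and Ndufa13 by 0.60, with 6 C and 5 S animals compared in each.

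Of the subunits that carry electrons, Ndufv1, which binds the flavin and NADH, fell in S vs C by 0.44 on the log2 scale (adjusted p = 0.0700). Ndufs7 and Ndufs8, which hold iron-sulfur clusters, fell by 0.51 (adjusted p = 0.0818) and 0.57 (adjusted p = 0.0687). Ndufs1, the largest iron-sulfur subunit, had 318, 384, 361, 342 and 323 CPM in S beside a range of 354 to 431 in C, with a log2 fold change of -0.14 ± 0.12 (adjusted p = 0.503). Ndufv2, which holds another iron-sulfur cluster, differed by stock, as described further on, and its log2 fold change in S vs C was -0.63 ± 0.38 (adjusted p = 0.327). With stock as a covariate it was -0.57 ± 0.16 (adjusted p = 0.0418), and 50 subunit genes were called. The calls over all genes rose as well in that fit, from 1359 to 2014.

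**Figure D3:**
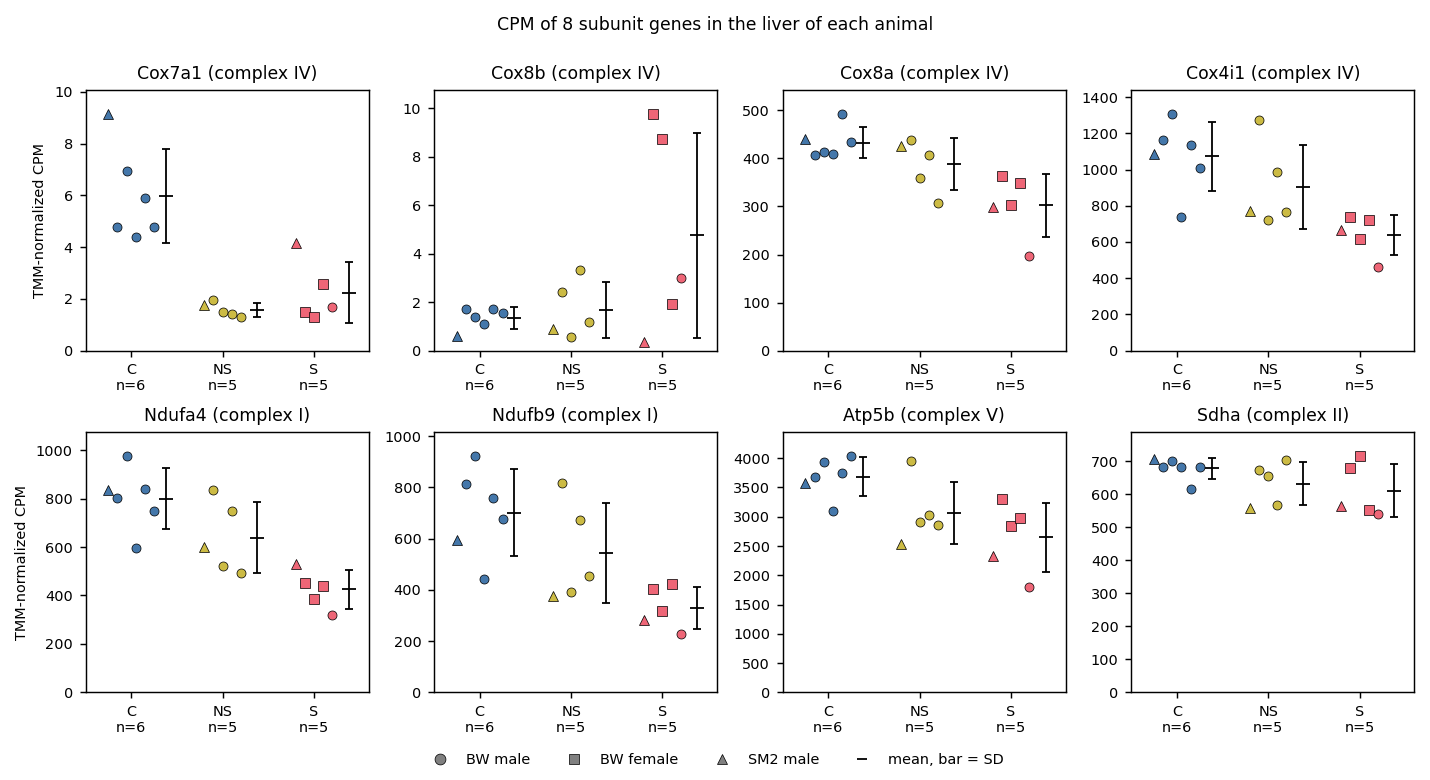
TMM-scaled CPM of 8 subunit genes in each animal, by group, with bars for the mean and SD. Cox7a1 is low in all NS animals and in 4 of 5 S animals, Cox8b is high in S animals 35955 and 35982, and Sdha overlaps between all groups.

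Complex II, the citric acid cycle enzyme of the chain and the complex with no subunit from mitochondrial DNA, showed the smallest differences. Sdha, its flavoprotein, had 616 to 708 CPM in C, with a median of 682. It had 557, 671, 655, 568 and 704 in NS and 565, 679, 716, 553 and 541 in S. The groups overlapped, and S animal 35982 was above every C animal. The log2 fold change in S vs C was -0.15 ± 0.12 (adjusted p = 0.457). Sdhc, a membrane anchor, had 279 to 319 CPM in C and 184, 248, 234, 215 and 183 in S, with every S animal below every C animal. It was the 1 gene of 4 called, at -0.45 ± 0.12 (adjusted p = 0.0497), and the call was lost without C animal 35975, where 0 of 4 were called. The iron-sulfur subunit Sdhb had a log2 fold change of -0.33 ± 0.13 (adjusted p = 0.133) and the anchor Sdhd one of -0.30 ± 0.14 (adjusted p = 0.202). Under total-count scaling the log2 ratio of the complex was -0.04 and 0 of its genes were called.

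In complex III, 4 of 5 genes fell in S vs C, with a median of -0.57. Uqcrfs1, the Rieske iron-sulfur protein, had 462 to 622 CPM in C with a median of 567. It had 381, 607, 475, 505 and 395 in NS and 342, 445, 401, 429.7 and 279 in S. All S values lay under all C values, and NS values lay in both ranges. Its log2 fold change in S vs C was -0.57 ± 0.15 (adjusted p = 0.04997). The small subunits Uqcr10 and Uqcrq fell by 0.79 and 0.57 on the log2 scale, and the core subunit Uqcrc2 by 0.39. The other core subunit, Uqcrc1, was at -0.45 ± 0.16 with an adjusted p of 0.105. These adjusted p lay near the limit: 0 of the 5 genes were called without S animal 36016, 1 without C animal 35975, 36001 or 36007 or S animal 35982, and 2 without C animal 35972, NS animal 35963 or 35937, or S animal 10880.

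Complex IV is where Cox7a1 and its isoform relatives belong. Of its 9 genes tested, 6 fell and 1 rose in S vs C, with a median of -0.57. Cox4i1, the common form of the subunit at which ATP regulates the enzyme, had 740.2 to 1308 CPM in C with a median of 1111. Its values were 772, 1271, 719, 987 and 766 in NS and 667, 736, 619, 721 and 462 in S. Every S animal lay below every C animal, by a narrow margin for 35955, and its log2 fold change was -0.75 ± 0.18 (adjusted p = 0.0373). Cox6b1 fell by 0.78 on the log2 scale (adjusted p = 0.0318), Cox7c by 0.78 (adjusted p = 0.0387), Cox5a by 0.57 (adjusted p = 0.0670) and Cox8a by 0.52 (adjusted p = 0.0610). The genes called lower numbered 4 to 6 with any single animal left out.

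Cox7a1, the muscle-type form of subunit VIIa, had the largest fall of any subunit gene. It had 4.38 to 9.15 CPM in C, with a median of 5.33. The NS animals had 1.76, 1.94, 1.49, 1.40 and 1.28 CPM, and the S animals 4.14, 1.48, 1.30, 2.57 and 1.69. All HFD animals lay below all C animals, and the SM2 animal of S, 10880, came nearest to them. The log2 fold change was -1.40 ± 0.32 in S vs C (adjusted p = 0.0310), a 2.64-fold lower level, and -1.92 ± 0.33 in NS vs C (adjusted p = 0.0494), a 3.78-fold lower level. Both comparisons use the same C animals. S and NS differed by 0.51 ± 0.34 (adjusted p = 0.583). These values rest on 7 to 93 counts per animal. The call in S vs C was lost with sex as a covariate (-1.01, adjusted p = 0.170), in the males alone (-1.01, adjusted p = 0.179) and without S animals 35982 and 36016 (-1.14, adjusted p = 0.144), and over all settings tried its adjusted p ran from 0.00205 to 0.179.

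Of the 21 isoform symbols that were looked up, the table holds 14, Cox7a1 included. Cox7a2, Cox7a2l, Cox5b, Cox6a1, Cox7b, Atp5g1 and Atp5g2 are not among its symbols and were not analysed here, so Cox7a1 could not be set beside the liver form of the same subunit. Counts are of uniquely mapped reads, and near-identical gene copies are therefore uncertain. Of the other muscle-type or tissue-restricted forms, Cox6a2 had a total of 1 count, and Cox7b2 and Cox8c had 0. Cox4i2, the form known from lung, had 0 to 16 counts per animal, and its CPM of 0.609, 0.174, 0, 1.53 and 0 in S overlapped the 0 to 0.867 of C.

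Cox8b, the muscle-type form of subunit VIII, went the other way from Cox8a. In C it had 0.590 to 1.73 CPM, with a median of 1.47. The NS animals had 0.882, 2.43, 0.543, 3.32 and 1.18, and the S animals 0.365, 9.77, 8.71, 1.91 and 3.00. The females 35955 and 35982 were high, the SM2 male 10880 was below every C animal, and the groups overlapped. Cox8a, the common form, had 407 to 493 CPM in C and 298, 364, 303, 349.6 and 197 in S, with no overlap. The log2 fold change of Cox8b in S vs C was 1.81 ± 0.62 (adjusted p = 0.0958). It was 0.27 with sex as a covariate (adjusted p = 0.874) and 0.28 in the males alone (adjusted p = 0.865). The call was lost in 18 of 28 other settings, 12 of them with 1 animal left out, where the log2 fold change ran from 1.35 to 2.11. The animals whose removal ended it were all 6 of C, NS animals 35963, 35987 and 35930, and S animals 35982, 36016 and 35955, and across all settings the adjusted p ran from 0.0345 to 0.874.

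Signals of muscle and brown fat were looked at beside these isoforms. The summed CPM of 12 skeletal muscle markers was 3.91 to 8.32 in C, 3.64 to 6.81 in NS, and 3.41, 7.50, 2.78, 7.82 and 122.7 in S. The value of 36016 came from Acta1, skeletal actin, at 118 CPM, while Ckm and Myl1 and Mb had 0 counts in that animal. Acta1 was the 1 marker of 4 tested that was called in S vs C. In 36016 Cox7a1 was at 1.69 CPM, the median of S. Cox8b in 36016 lay above every C animal, as it did in S animals 35955, 35982 and 35990. The 4 brown adipocyte markers in the table summed to 10.6 to 28.1 CPM in C and 10.5 to 17.7 in NS. In S the sums were 8.89, 8.20, 9.82, 9.92 and 23.6. Most of each sum was Ppargc1a, except that Cidea added 5.67 CPM in 10865 and 4.26 in 10880, with Elovl3 at 0 and Ucp1 at 0 to 3 counts. Ppargc1a had 10.5 to 28.0 CPM in C and 4.63, 7.67, 8.71, 9.82 and 22.9 in S. Its log2 fold change was -0.89 in S vs C (adjusted p = 0.122) and -0.71 in NS vs C (adjusted p = 0.594). The 3 brown adipocyte markers tested were not called against C in either HFD group. Cardiac muscle markers summed to at most 3.00 CPM. The part of these signals in the Cox7a1 and Cox8b values was not tested.

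All 6 genes of complex V fell in S vs C, with a median of -0.61. Atp5b, the catalytic beta subunit, had 3094 to 4042 CPM in C with a median of 3717. The NS animals had 2540.01, 3955, 2905, 3038 and 2862 CPM, and the S animals 2335, 3308, 2836, 2976 and 1796. S animal 35955 lay within the C range and the other S animals below it. The log2 fold change was -0.47 ± 0.16 (adjusted p = 0.0960). Atp5c1, the gamma subunit of the central stalk, fell by 0.71 (adjusted p = 0.0387), Atp5g3, a gene for the c subunit of the rotating ring, by 0.57 (adjusted p = 0.0525) and Atp5j2, the f subunit, by 0.72 (adjusted p = 0.0791), all on the log2 scale. Without single animals fewer were called: 1 without C animal 35975, 2 without C animal 36001 or 36007 or S animal 35982 or 36016, and 3 without C animal 10876 or 35972. With sex as a covariate, and in the males alone, 2 of the 6 were called, with total-count scaling 3, and with the log2 total count as a covariate 0.

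NS was compared with C to see the HFD without steatosis. Cox7a1 was the 1 subunit gene called, lower in NS, where 0.0237% of all genes were called lower and 0.0554% higher. The call was lost, with 0 subunit genes called, without C animal 10876 (adjusted p = 0.105) or NS animal 35963 (0.197), 35987 (0.181) or 35937 (0.154), although the log2 fold change stayed between -2.003 and -1.75. Cox7a1 was also the 1 gene of 57 in which every NS animal lay below every C animal, which held for 0.427% of all genes. The median of the 57 genes was -0.21 beside 0.01 for all genes, and 55 lay below 0. By complex, the log2 ratios of group means were -0.25, -0.12, -0.17, -0.23 and -0.24 for complexes I to V, and NS and C overlapped in each. Without NS animal 35930 they were -0.37, -0.17, -0.28, -0.36 and -0.35, and the median of the genes was -0.35. At an unadjusted p under 0.05 there were 2 subunit genes with all animals in the fit, beside 1048 of all 12639 genes. Without NS animal 35930 there were 17 subunit genes. Without C animal 35998 there were 7 such genes, and without C animal 10876, NS animal 35963 or S animal 36016 there were 3. Without NS animal 10865 the ratios of complexes II and III were -0.08 and -0.10, and under total-count scaling those of complexes I to V were -0.16, -0.03, -0.08, -0.15 and -0.16.

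S was compared with NS to separate steatosis from the diet. With edgeR 0 of 57 subunit genes were called, where 0.00791% of all genes were called, and with DESeq2 also 0, where 119 of all 12639 genes were called. With sex as a covariate 213 of all 12639 genes were called, and in the males alone 165 of 12492, again with 0 subunit genes. At an unadjusted p under 0.05 there were 33 in edgeR, of which 32 were lower in S, beside 1381 of the 12639 genes, of which 599 were lower. The median was -0.39 beside 0.04 for all genes, and 52 lay below 0. In 3 genes, Ndufb3, Ndufs6 and Ndufc2, every S animal lay below every NS animal, which 0.752% of all genes did. The log2 ratios of group means were -0.42, -0.15, -0.34, -0.47 and -0.30 for complexes I to V. Without S animal 36016 those of complexes II and V were -0.09 and -0.20, and without NS animal 35930 those of complexes III and V were -0.22 and -0.19. Under total-count scaling the 5 ratios were -0.27, -0.01, -0.18, -0.32 and -0.14. Without NS animal 35930, 10 genes had an unadjusted p under 0.05 and the median was -0.27. Without S animal 36016 there were 15, without NS animal 35963 there were 17 and without S animal 35982 there were 19. Without S animals 35982 and 36016 together there were 5, with a median of -0.24, under total-count scaling 15 and with the log2 total count as a covariate 20.

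SM2 and BW animals were compared with the 3 groups in the model, to see which subunit genes differ between the stocks. Of 57 genes, 3 were higher in SM2, where 11.9% of all genes were, and 3 were lower, where 9.85% of all genes were. Among the 3 higher is Cox6b2, which passed the filter through S animal 10880 alone. The median was -0.06 beside -0.04. Ndufv2 had the smallest adjusted p. Its values in the SM2 animals were 296 CPM in C, 209 in NS and 215 in S, and the 13 BW animals ran from 508 to 1082 with a median of 741. The stocks did not overlap, and the log2 difference of -1.74 ± 0.19 (adjusted p = 1.33e-05) was a 3.33-fold lower level in SM2. Reads of both stocks were counted on the same genome build, and mapping rates by stock are not in the files.

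**Figure D4:**
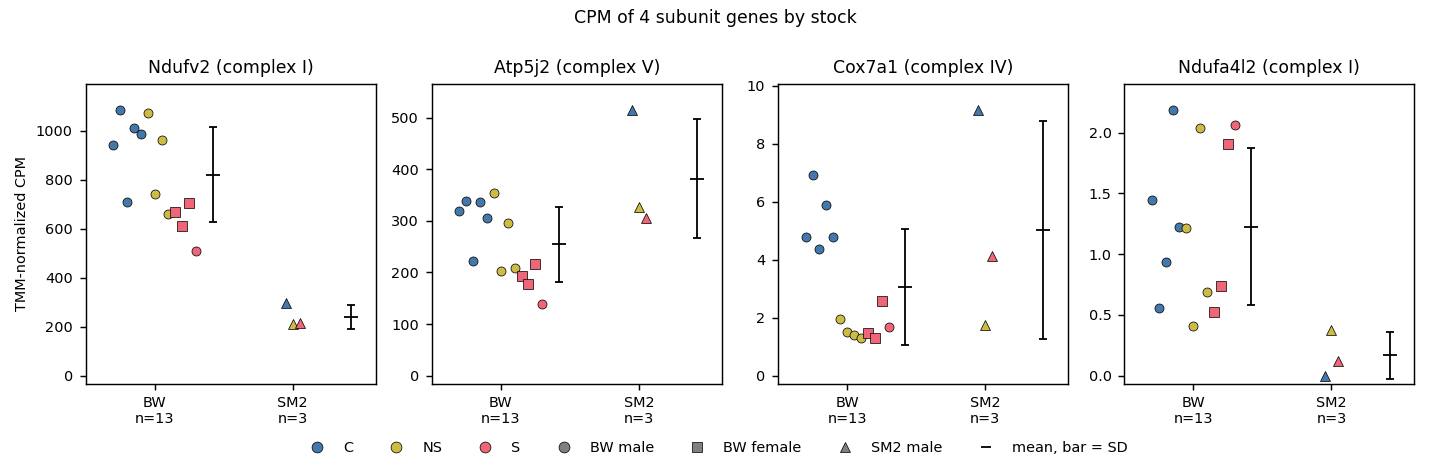
TMM-scaled CPM of Ndufv2, Atp5j2, Cox7a1 and Ndufa4l2 in each animal, by group, with SM2 and BW animals marked apart. In Ndufv2 the 3 SM2 animals lie between 209 and 296 CPM, below all 13 BW animals.

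Atp5j2 had 514 CPM in the SM2 animal of C, 327 in that of NS and 305 in that of S, each the highest of its group but for NS animal 35930. SM2 was higher by 0.61 ± 0.18 on the log2 scale (adjusted p = 0.0257). Cox7a1 was higher in SM2 by 0.77 ± 0.25 (adjusted p = 0.0493), with ranges that overlapped. Cox8b was lower, at -1.91 ± 0.67 (adjusted p = 0.0624). Ndufa4l2, a relative of Ndufa4 known as a hypoxia-induced gene, had 0, 3 and 1 counts in the SM2 animals of C, NS and S and 131 in the 13 BW animals together. Scaled by total counts, its ratio of SM2 to BW was 0.124, with a 95% counting interval of 0.0332 to 0.324 that covers counting error only (adjusted p = 0.0256). Cox6b2, known from testis, had 1 and 5 counts in the SM2 animals of NS and S and 0 in all BW animals, so no fold is given. It passed the filter through S animal 10880 alone, at 0.609 CPM. Its call (adjusted p = 0.0978) is therefore not read as a difference between the stocks. These calls rest on 3 animals: without S animal 10880 there was 1 call and without C animal 10876 there were 2. The calls of Atp5j2, Cox7a1 and Ndufa4l2 were lost without 10876 (adjusted p of 0.126, 0.149 and 0.108) or 10880 (0.131, 0.303 and 0.124), and that of Cox8b without 10865 (0.101) or 10880 (0.354). The Cox6b2 call was lost in 15 of 16 fits with 1 animal left out and kept without S animal 36016 (adjusted p = 0.0876). Without 10880 the gene did not pass the filter. The Ndufv2 call was kept whichever animal was left out. A term for a diet difference that depends on stock was called for 0 of 57 subunit genes in edgeR, with 0 at an unadjusted p under 0.05, where 0.0712% of all genes were called and 986 of 12639 had an unadjusted p under 0.05. It rests on 1 SM2 animal on chow and 2 on HFD, so a difference could be missed. DESeq2 was not run for that term.

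The study's own measure of coordination, Pc, asks whether a gene keeps its correlations with all other genes from one group to another. Pearson's r of the gene with every other gene is taken in each group, and Pc is the r between the resulting sets of values, calculated here on TMM-scaled CPM. It is given as a description, since genes of the same animals are not independent. In S vs C the median Pc of the 56 subunit genes that vary in both groups was 0.268, beside 0.113 for all 12500 genes. In NS vs C it was 0.399 beside 0.170, and in S vs NS 0.205 beside 0.201. Without C animal 35998 the S vs C median was 0.101, and it was at most 0.275 with any single animal left out. The NS vs C median was 0.180 without C animal 35998, 0.223 without NS animal 35930 and 0.225 on the counts as deposited.

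**Figure D5:**
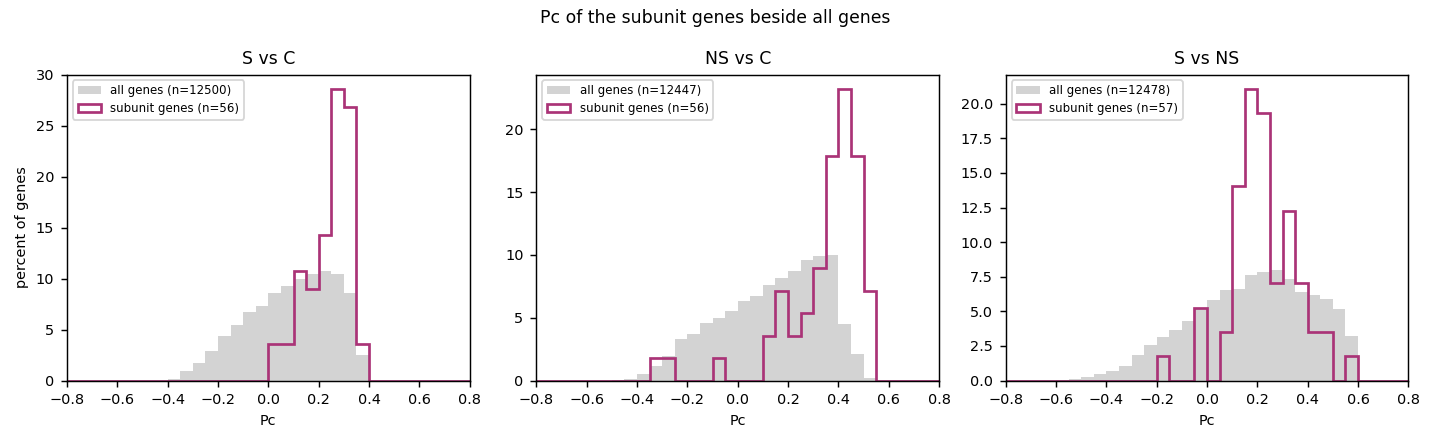
Distribution of Pc for the subunit genes and for all genes in the 3 comparisons, as a percent of genes in each bin of Pc. The subunit genes lie to the right of all genes where S or NS is set against C, with medians of 0.268 and 0.399, and overlap them in S vs NS, with a median of 0.205.

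Summed over the 3 comparisons, the median was 0.882 beside 0.410, and 6 of 56 subunit genes were among the 622 genes, 5.01% of all, with a cumulative Pc of at least 1.14. The highest were Ndufc1 at 1.25, Ndufv2 at 1.20 and Ndufb7 at 1.19. The lowest were Sdhd at -0.329, Cox4i2 at 0.0772 and Sdha at 0.174, and 2 of these 3 belong to complex II. The count of 6 moved with the animals and the scale used. It was 1 on the counts as deposited and 23 in the BW animals alone. With 1 animal left out it was 24 without NS animal 10865, 20 without S animal 10880, 13 without C animal 10876, 3 without NS animal 35963, 35987 or 35930 or S animal 35982 or 36016, 2 without C animal 36001 or NS animal 35937, and 1 without C animal 35998 or S animal 35990.

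Genes that build and feed the chain were described by lists. In S vs C, where 5.36% of all genes were called lower, 15 of 49 assembly factors fell and 0 rose, with a median of -0.38. Cmc1, a complex IV assembly factor, fell by 0.97 on the log2 scale, Cmc2 by 0.81, Higd1a by 0.76, the complex I factor Ndufaf4 by 0.75 and Pet100 by 0.63. Of 19 genes for cytochrome c, coenzyme Q and electron entry, 4 fell and 0 rose, with a median of -0.19: Ndufab1, the acyl carrier protein in complex I, by 0.62, Etfa, which takes electrons from fatty acid oxidation, by 0.55, Cyc1, the cytochrome c1 of complex III, by 0.48 and Coq8b by 0.39. Of 9 adenine nucleotide carriers and related genes tested, the phosphate carrier Slc25a3 and the ADP/ATP carrier Slc25a5 fell, by 0.49 and 0.56. The medians stayed below 0 under total-count scaling for assembly factors (-0.14) and carriers (-0.16) and turned to 0.04 for the cytochrome c and coenzyme Q genes. The last median was -0.31 without S animal 35982, -0.28 without S animal 35955, and -0.43 with sex as a covariate or in the males alone. Without C animal 35975 the calls were 3, 1 and 0 in the order of the lists, without C animal 36001 4, 2 and 0, without C animal 36007 5, 2 and 0, without S animal 35982 4, 2 and 0, and without S animal 36016 5, 1 and 0. They were 1, 0 and 0 without S animals 35982 and 36016 together, and 2, 0 and 0 with the log2 total count as a covariate. With sex as a covariate they were 8, 4 and 2, in the males alone 5, 4 and 1, and with total-count scaling 6, 1 and 0, where 1 assembly factor rose.

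Regulators and the citric acid cycle were mixed, where 5.36% of all genes were called lower and 5.39% higher. Of 19 regulators of mitochondrial biogenesis, 2 fell in S vs C, Tfam by 0.61 and Tfb2m by 0.81 on the log2 scale, both of them factors for transcription of mitochondrial DNA. Another 3 rose, Hif1a by 0.95, Gabpa by 0.41 and Mtor by 0.42, and the median was 0.00, between -0.08 and 0.08 with any single animal left out. Of 18 citric acid cycle and pyruvate dehydrogenase genes, Suclg1 fell by 0.50 and Fh1 by 0.69, and Dlat, the acetyltransferase of pyruvate dehydrogenase, rose by 1.23, with a median of -0.17 that was -0.11 without S animal 36016 and turned to 0.07 under total-count scaling. Dlat had 22.8 to 38.0 CPM in C and 77.1, 56.2, 115.1, 34.2 and 59.5 in S, where 35990 alone lay within the C range. The 3 regulators that rose numbered 0 without C animal 35975 or 36001 or S animal 35982 or 36016 and 1 without C animal 10876, 35972 or 36007, NS animal 35963 or S animal 10880. The 2 that fell numbered 1 without C animal 35975 or 36007. The 2 cycle genes that fell numbered 0 without C animal 35975 or 36007 and 1 without C animal 36001, S animal 10880 or S animal 36016. Without S animals 35982 and 36016 together, 1 regulator fell and 0 rose, and with the log2 total count as a covariate 2 fell and 0 rose. In both of these fits 0 cycle genes fell and 1 rose. Under total-count scaling 1 regulator fell and 5 rose, with a median of 0.24, and 0 cycle genes fell and 2 rose. With sex as a covariate 3 regulators fell and 2 rose, and in the males alone 2 fell and 2 rose, while the cycle genes that fell numbered 2 and 0.

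A part of the ribosomal protein genes fell as well. Of 70 mitochondrial ribosomal protein genes 22 fell in S vs C and 0 rose, with a median of -0.42, Mrpl57 by 0.74, Mrps28 by 0.64 and Mrpl50 by 0.60 on the log2 scale among them. Of 34 cytosolic ribosomal protein genes 15 fell and 0 rose, with a median of -0.61, the same to 2 decimals as that of complex V, and Rpl37 fell by 0.88 and Rpl24 by 0.73. Their summed CPM was 8935 to 15060.0 in C and 10304, 9025, 7947, 11264 and 7047 in S, and the groups overlapped. Under total-count scaling the medians were -0.19 and -0.37, and 5 mitochondrial and 6 cytosolic genes fell and 1 mitochondrial gene rose. With sex as a covariate 14 and 6 fell, and in the males alone 7 and 3. The mitochondrial and cytosolic counts were 1 and 2 without C animal 35975, 6 and 5 without C animal 36001, 5 and 4 without C animal 36007, 10 and 4 without S animal 35982, and 4 and 3 without S animal 36016. The mitochondrial count was 14 without C animal 35972, and the cytosolic count was 25 without C animal 35998. Both counts were 0 without S animals 35982 and 36016 together, with medians of -0.30 and -0.45, and 0 with the log2 total count as a covariate, with medians of -0.32 and -0.48. Over the 218 tested genes of all these lists, edgeR called 0 in the comparison of NS with C (7 at an unadjusted p under 0.05, DESeq2 0) and 0 in that of S with NS (63 at an unadjusted p under 0.05, DESeq2 2). Of all 12639 genes, 1048 and 1381 had an unadjusted p under 0.05 in these comparisons, and DESeq2 called 114 and 119.

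Between the stocks, the lists held calls in both directions, as did all genes, of which 11.9% were called higher and 9.85% lower in SM2. Among the 49 assembly factors 6 were higher and 3 lower in SM2, with Lyrm7 at 1.20 and Cox14 at -0.91. Of the 19 cytochrome c and coenzyme Q genes 2 were higher, Coq8a at 0.89 and Coq6 at 0.66, and 3 lower. Of the 18 citric acid cycle genes 3 were higher, with Idh2 at 0.85, and 2 lower, with Pdhb at -0.57. The 19 regulators had 0 higher and 3 lower, Ppargc1b at -1.17, Ppara at -0.77 and Tfb2m at -0.60. The 70 mitochondrial ribosomal proteins had 3 higher and 6 lower, with Mrpl3 at -1.29, the 34 cytosolic ones 2 higher, Rps16 at 0.81 and Rpl4 at 0.40, and the 9 carriers 0. These calls, too, rest on 3 SM2 animals.

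Markers of the cells in the liver were read beside these results. Of the 6 hepatocyte markers in the table, which lacks Alb, Fgb and Ttr fell in S vs C, each by 0.66 on the log2 scale, and Apoa1 rose by 0.96. Their summed CPM was 53154 to 77655 in C, 47897 to 86929 in NS and 66516, 61470.2, 49493, 41534 and 52234 in S, with Cyp2e1 the most abundant in most animals. Of 3 neutrophil markers tested S100a8 fell by 1.98 and S100a9 by 1.77, and the summed level was 26.0 to 73.7 CPM in C, 8.89 to 53.9 in NS and 11.3, 4.45, 13.9, 19.6 and 11.6 in S, nearly all from these genes, with Ngp at 0 to 4 counts. The 4 Kupffer cell markers were not called in S vs C. Their sum was 77.0, 283, 300, 547 and 195 CPM in S, beside 149.5 to 353 in C. Marco was the most abundant of them in S animal 35990. The 9 smooth muscle and pericyte markers were not called, though 0 of them lay below 0 in S vs C (median 0.72) or in S vs NS (median 0.78). Their sum was 50.2, 77.5, 47.4, 122 and 173 CPM in S, beside 41.4 to 97.7 in C. The white adipocyte marker Fabp4, the others being too sparse and Lep at 0 in every animal, was not called either. Nor were the 2 erythroid markers or the 1 pancreas marker tested. Between the stocks, markers of several cell types differed: in SM2 Cidea was higher by 2.99 on the log2 scale (adjusted p = 0.00162) and the pancreas marker by 1.79 (adjusted p = 0.0131), while Fabp4 was lower by 3.43 (adjusted p = 0.0129), as were 2 of the 4 Kupffer cell markers and 1 of the 9 smooth muscle and pericyte markers. Cidea was high in the SM2 animals on HFD, at 5.67 CPM in 10865 and 4.26 in 10880. In the SM2 animal of C, 10876, it was at 0.492 CPM, and BW animals had up to 0.927. The part of the hepatocyte, neutrophil and smooth muscle markers in the fall of the subunit genes was not tested.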

How the data were processed

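RNA was sequenced from 16 livers. The authors used STAR 2.7.2 to align read pairs to HU_Pman_2.1 and featureCounts to assign those with a unique position to genes. The deposited values are raw counts by gene symbol, with no normalization. The strand setting and the conversion to symbols are not stated, so overlapping genes, pseudogenes and close copies are uncertain. Group, stock and sex come from the sample labels. The labels give an RNA quality score of at least 8.6.

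Members are the genes whose symbols match the subunit families. They, and the gene lists, were chosen with earlier results of these data known. Tests used edgeR 4.0.16 (R 4.3.3, limma 3.58.1), its quasi-likelihood F-test and TMM factors. The filter of 0.5 CPM in 1 or more animals kept 12639 genes. There was 1 fit of all 16 animals without covariates, with Benjamini-Hochberg adjustment over all genes tested and calls at an adjusted p under 0.1. SM2 vs BW had group in the model, and the interaction had HFD, stock and their product. Tests are two-sided. No p was computed over a list. Pc used Python 3.11.15 and numpy 2.4.6, and the figures matplotlib 3.10.9. The calls and Pc were tested on simulated data.

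Named members are those called (the 10 with the smallest adjusted p where more than 10 were called in a direction), the isoform sets, complex II, the 2 with the highest mean CPM of each complex, the 3 highest and lowest log2 fold changes above a mean of 1 CPM, and the 3 highest and lowest cumulative Pc. Other members, and marker genes, were chosen after their values were seen. From each list up to 5 called genes are named. Lists are assembly factors, subunits from mitochondrial DNA, cytochrome c and coenzyme Q genes, biogenesis regulators, citric acid cycle, carriers, mitochondrial and cytosolic ribosomal proteins, and markers of 10 cell types.

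Total counts of 4640733 to 11349971 per animal make ratios of genes with few counts uncertain, and counting intervals and floors cover counting error only. Animals of a group differed well beyond counting error, with a chi-square per degree of freedom of at least 23.6 for any 2 of them. Alternatives were DESeq2 1.42.0, RLE factors, other filters and thresholds, stock or sex as a covariate, BW or male animals alone, fits of 2 groups, deposited counts, log2 values or Spearman's rho for Pc, and each animal left out. Total-count scaling, leaving out 35982 and 36016, and the log2 total count as a covariate were chosen after seeing the data.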

Additional observations from a re-analysis of the deposited data

Results flagged for a closer look

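Of 123 groups of 5 or 6 values looked at, 7 held an animal far from the others of its group, and chance alone gives about 1 in 20 groups, as a guide only, since the groups share animals and are not independent. C animal 35998 was the lowest of its group, far from the other controls, in the summed CPM of complex V (5160.17), in Ndufb7 (166.175 CPM) and in Sdhb (400.195 CPM). C animal 36001 was lowest in Sdha (616.282 CPM), and C animal 35975 was highest in Sdhc (318.57 CPM). Cox6b2 had its highest values of a group in the SM2 animals, 0.126049 CPM in NS animal 10865, which is 1 count, and 0.60908 CPM in S animal 10880, which is 5 counts, where every other animal of these groups had 0, so that any count there stands out.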

How the results depend on the processing

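The number of subunit genes called in S vs C, 48, was 29 with sex as a covariate, 22 in the males alone, 24 at an adjusted p under 0.05 and 3 with a fold change of at least 2. Under settings chosen after seeing the data it was 28 with total-count scaling, 13 with the log2 total count as a covariate and 1 without S animals 35982 and 36016. With 1 animal left out it ran from 21 to 49, the number in NS vs C from 0 to 1, the number in SM2 vs BW from 1 to 6, the median Pc in S vs C from 0.101 to 0.275, that in NS vs C from 0.180 to 0.402, and the number in the top 5% of cumulative Pc from 1 to 24, which was 1 on deposited counts and 23 in the BW animals alone. Fewer animals in a fit mean fewer degrees of freedom, and beyond that the cause was not tested. The median log2 fold changes of the subunit genes moved by less than the SD between animals. In S vs C they lay between -0.75 and -0.37, in NS vs C between -0.35 and -0.13, in S vs NS between -0.52 and -0.24, and in SM2 vs BW between -0.10 and 0.04. For 17 fold changes of named genes, 397 of 440 settings kept direction and side of the threshold, 43 kept the direction alone and 0 reversed. Of 205 settings for the 15 ratios of complexes, 4 moved by more than the SD between animals, all under total-count scaling. No paired analysis was made, since each liver came from a separate animal and the labels pair none of them. Depth limits Cox4i2, Cox6b2, Ndufa4l2, Cox7a1 and Cox8b most.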
